A study of Homo sapiens with 48 samples.

Results

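The 10 genes described here encode enzymes that make, interconvert or conjugate androgens, and they were chosen by name: UGT2B11, UGT2B15, UGT2B17, UGT2B28, SRD5A1, SRD5A3, HSD17B4, HSD17B6, AKR1C3 and STS. They are 10 of the 61815 genes counted in 48 RNA-seq libraries of 22Rv1, a human castration-resistant prostate cancer (CRPC) cell line, and of lines derived from it. The parental cells are called Rv1-WT, and Rv1-Luc cells carry a lentivirus for firefly luciferase. The other lines go back to Rv1-dKO, a double knockout by CRISPR/Cas9 of the genes for the Mediator kinases, CDK8 and CDK19. dKO-19 and dKO-19M received wild-type CDK19 or its kinase-inactive D173A mutant by lentivirus, and dKO-8 and dKO-8M received wild-type or D173A mutant CDK8 in cells that already carried an insert-free vector. Each culture was given SNX631 at 500 nM, an inhibitor of both kinases, or vehicle (0.1% DMSO), for 72 hours. For Rv1-WT and Rv1-Luc the medium held either fetal bovine serum (FBS) or, after a passage in it, charcoal-stripped serum (CSS), from which androgens are removed, and the dKO derivatives were grown in FBS. This gave 16 groups of 3 libraries, described by the study as biological triplicates. All dKO derivatives therefore share the double knockout, and no group holds parental cells put through the same cloning, so a difference between a dKO derivative and Rv1-WT cannot be told apart from a difference between clones.

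Androgens are built from cholesterol through steps that prostate tumor cells can carry out in part from adrenal precursors. Steroid sulfatase (STS) releases dehydroepiandrosterone from its circulating sulfate, AKR1C3 reduces androstenedione to testosterone, and the steroid 5-alpha-reductases convert testosterone and its precursors into the 5-alpha-reduced steroids that include dihydrotestosterone. HSD17B6 oxidizes 3-alpha-androstanediol back to dihydrotestosterone, and HSD17B4 is a peroxisomal enzyme that oxidizes 17-beta-hydroxysteroids and also serves fatty acid oxidation. The UDP-glucuronosyltransferases UGT2B15 and UGT2B17 attach glucuronic acid to testosterone, dihydrotestosterone and their metabolites, which ends their action as hormones and marks them for export.

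The 4 UGT2B genes lie in a cluster of near-identical copies, so their sequences bear on what their counts mean. In the GENCODE release 29 annotation of GRCh38, UGT2B17 is at chr4:68537184-68568527, UGT2B15 at chr4:68646630-68670628 and UGT2B11 at chr4:69199951-69214731, all on the minus strand, and UGT2B28 is at chr4:69280499-69295050 on the plus strand. SRD5A3 is on the same chromosome at chr4:55346109-55373096, SRD5A1 at chr5:6633343-6674386, HSD17B4 at chr5:119452443-119637199, HSD17B6 at chr12:56752161-56787790, AKR1C3 at chr10:5035354-5107686 and STS at chrX:7219456-7354810, all on the plus strand. The coding sequences of UGT2B15 and UGT2B17 have 1590 bases each, align without a gap and differ at 55 positions (96.5% identity), with a longest identical run of 199 bases. Those of UGT2B11 and UGT2B28 differ at 47 of 1587 positions (97% identity), whereas UGT2B15 and UGT2B11 are 84.6% identical. The stretch of 120 coding bases in which UGT2B15 and UGT2B17 differ most, bases 266 to 385 counted from the start codon, holds 15 of the differences and shows what a read needs to contain to be told apart. Capitals mark the differing bases.
UGT2B15: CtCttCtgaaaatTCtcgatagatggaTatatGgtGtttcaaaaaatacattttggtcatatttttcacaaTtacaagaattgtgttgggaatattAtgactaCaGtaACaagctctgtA
UGT2B17: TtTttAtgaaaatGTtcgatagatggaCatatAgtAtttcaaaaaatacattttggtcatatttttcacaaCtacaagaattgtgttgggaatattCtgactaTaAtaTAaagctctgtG
Of all 50-base words in the annotated UGT2B15 transcripts, 27.8% also occur in a transcript of another gene, for nearly all of them UGT2B17 (27.5%). The share was 27.8% for UGT2B17, 36.4% for UGT2B11 and 34.8% for UGT2B28, against 4.53% for AKR1C3 and at most 1.37% for the other 5 members. UGT2B11 shared most words with the pseudogene UGT2B25P (19.9%), and UGT2B28 with UGT2B11 (20.1%). How the table treats reads that fit several genes is not given in the sources used here, but some of its counts are fractional. The count was not a whole number in 16.7% of the 48 libraries for UGT2B15, 14.6% for UGT2B17 (29.2% of the libraries in which it was above 0), 4.17% for UGT2B11 and 2.08% for UGT2B28. Outside this family, SRD5A3 had fractional counts in 75% of libraries, STS in 54.2%, HSD17B4 in 27.1%, AKR1C3 in 4.17%, and SRD5A1 and HSD17B6 in 0%. Over all genes, 7.62% of all values in the table were fractional, or 18.4% of the nonzero values. The members with the most shared words were thus not those with the most fractional counts. Values of the UGT2B genes are uncertain to the extent that shared reads were dropped or assigned to the wrong copy.

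UGT2B15 is the member with the clearest response in what follows and UGT2B11 a relative that moved the other way in CSS. The 250 bases before their RefSeq start sites are shown for comparison (GRCh38.p14, minus strand). Capitals mark the motifs found there among 3 that were searched on both strands. These were TGTTTAC, bound by FOXA factors, GTTAAT, an arm of the HNF1 site, and TATAAA, the TATA box.
UGT2B15, chr4:68670653-68670902: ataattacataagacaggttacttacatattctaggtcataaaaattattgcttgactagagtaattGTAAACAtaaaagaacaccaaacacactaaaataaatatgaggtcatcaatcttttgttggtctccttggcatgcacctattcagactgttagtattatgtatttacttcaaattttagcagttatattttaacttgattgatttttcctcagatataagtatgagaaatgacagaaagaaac
UGT2B11, chr4:69214749-69214998: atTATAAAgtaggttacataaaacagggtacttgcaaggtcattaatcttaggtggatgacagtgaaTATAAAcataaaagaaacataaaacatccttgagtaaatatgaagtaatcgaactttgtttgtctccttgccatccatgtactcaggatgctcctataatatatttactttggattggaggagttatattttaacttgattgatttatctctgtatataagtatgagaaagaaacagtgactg
The UGT2B15 window held a FOXA motif that begins 183 bases before the start site, on the opposite strand. The UGT2B11 window held 2 TATA box motifs, which begin 248 and 183 bases before the start, and neither of the others. Of 35116 promoter windows of the same length, 2.98% held the FOXA motif, 6.23% the HNF1 arm and 10.7% the TATA box. A match is a run of letters and was not tested as a binding site in these data.

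The libraries held 13.2 M to 31.5 M counts, fewest in Rv1-WT (13.2 M to 18.2 M). Levels are given as counts-per-million (CPM) after scaling by trimmed means of M values (TMM), as mean ± SD of 3 libraries. FfLuc was at 484 to 518 CPM in the 12 Rv1-Luc libraries and at 0 in all others. CDK8 mRNA was highest in dKO-8 (60.6 to 71.4 CPM) and dKO-8M (118 to 134 CPM) and CDK19 mRNA in dKO-19 (469 to 519 CPM) and dKO-19M (299 to 359 CPM), and the mRNA of the kinase not put back stayed detectable, so mRNA level alone does not show the knockout. The luminal genes KRT8 and KRT18 were expressed in every library. FOLH1, also a luminal gene, varied more (from 4.9 CPM up). Its group means were 334 to 520 CPM in Rv1-WT and Rv1-Luc and 5.81 to 29.8 CPM in the dKO derivatives. CD3E, PTPRC, PECAM1 and COL1A2, markers of other cell types, did not exceed 0.815 CPM, while COL1A1 was at 2.54 to 10.8 CPM. A vehicle library of dKO-19M (replicate 1) and a vehicle library of Rv1-Luc in FBS (replicate 1) stood apart from their replicates, with chi-square values, divided by their degrees of freedom, of up to 17.7 and 9.69, against 1.28 to 4.84 for the pairs without them. A call required a change of over 1.5-fold and an FDR (false discovery rate) under 0.01 in edgeR's quasi-likelihood test, the limits used in the study, with adjustment over all 20009 genes tested.

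Per kilobase of annotated exon, UGT2B15 and HSD17B4 had the highest levels of the 10 in Rv1-WT in FBS with vehicle, at 23.8 ± 0.387 and 22.7 ± 0.581 CPM per kb. SRD5A3 (8.96 ± 0.6), SRD5A1 (8.7 ± 0.229) and AKR1C3 (6.73 ± 0.368 CPM per kb) followed, then HSD17B6 (3.18 ± 0.585), UGT2B11 (2.76 ± 0.229) and STS (1.7 ± 0.196 CPM per kb). UGT2B17 and UGT2B28 were lowest, at 0.626 ± 0.0185 and 0.342 ± 0.12 CPM per kb. The exon length is that of all annotated isoforms together, which lowers the value of genes with many isoforms such as HSD17B4.

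The synthesis enzymes other than AKR1C3 were present in every line, whereas UGT2B15, UGT2B17 and AKR1C3 were at or near 0 in the dKO derivatives. SRD5A1, SRD5A3, HSD17B4, HSD17B6 and STS had their highest group mean between 1.43 (STS) and 2.08 (HSD17B6) times their lowest. HSD17B4 ranged from 193 ± 5.2 to 277 ± 2.61 CPM, SRD5A1 from 45.7 ± 0.429 to 85.6 ± 0.846 CPM, and STS from 8.48 ± 0.637 to 12.1 ± 0.241 CPM over the 16 groups. In contrast, UGT2B15 reached 90.9 CPM in a library of Rv1-WT and at most 0.24 CPM, or 7 counts, in any of the 24 libraries of the dKO derivatives. UGT2B17 had 0 counts in all 24 of these libraries, which allows a level of up to 0.00551 CPM over their pooled counts (3 counts, counting error only), and 3 to 111 counts in each of the 24 libraries of Rv1-WT and Rv1-Luc. AKR1C3 had 0 counts in 14 of the 24 dKO libraries and at most 6 in the others. UGT2B11 was at 0 to 15 counts per library there. UGT2B28, at 0 to 13.5 counts per library in these lines, was low everywhere, and its mean in dKO-8 with vehicle (0.344 ± 0.161 CPM) lay above those in Rv1-Luc in CSS with vehicle (0.285 ± 0.0919 CPM) and with SNX631 (0.11 ± 0.0708 CPM). Since parental and derived lines differ by clone as well as by kinase, these levels are given as a description.

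**Figure D1:**
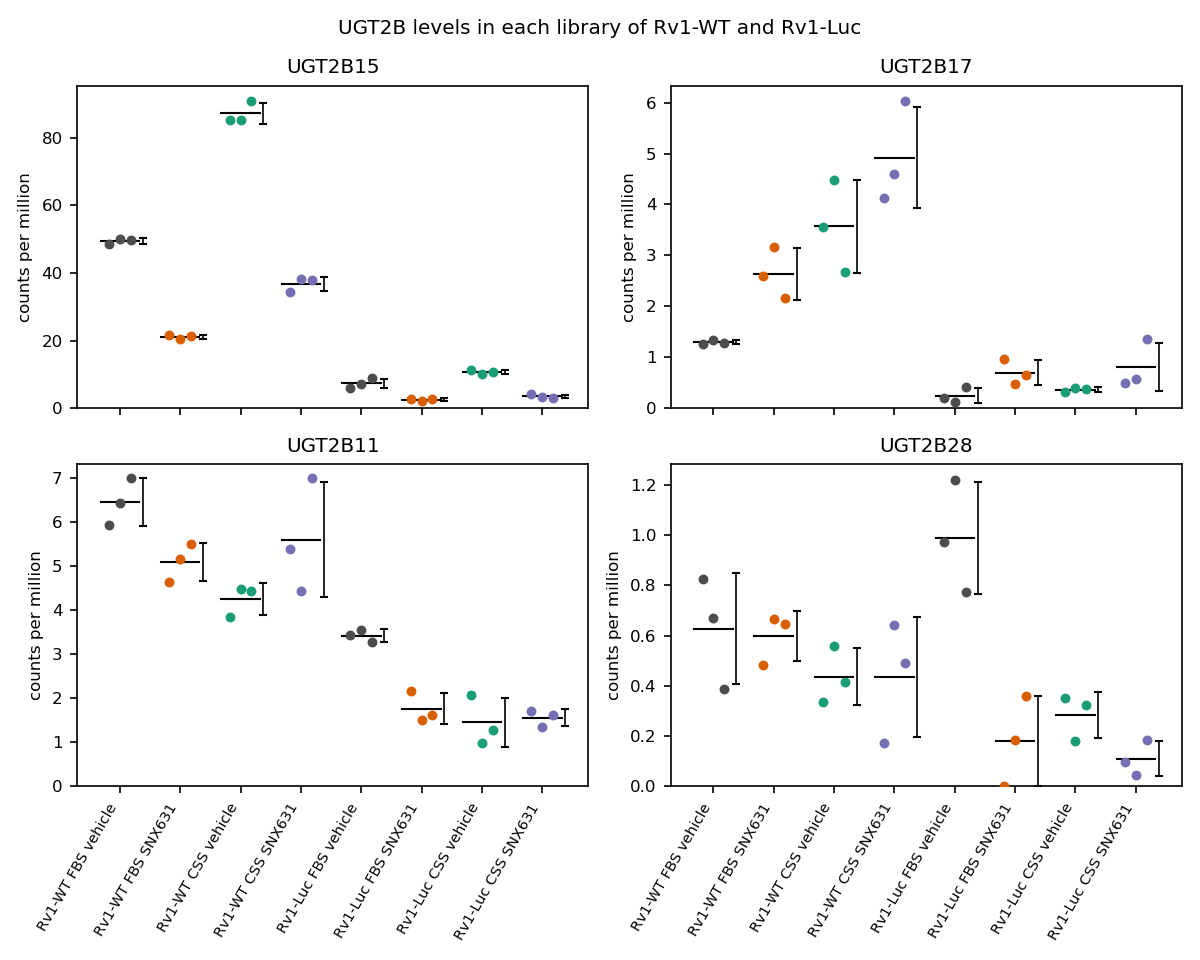
Levels of the 4 UGT2B members in CPM (y axes, linear, from 0) in the 8 groups of Rv1-WT and Rv1-Luc (x axis); points are libraries, horizontal lines group means and error bars ± SD of 3 libraries. UGT2B15 was lower with SNX631 (orange, purple) than with vehicle (grey, green) in each of the 4 settings, without overlap, while UGT2B17 was not.

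Among the UGT2B genes, UGT2B15 was the member with the clearest response to SNX631. In Rv1-WT in FBS it stood at 48.6, 50.1 and 49.8 CPM with vehicle and at 21.6, 20.5 and 21.4 CPM with SNX631, and in CSS at 85.4, 85.3 and 90.9 CPM against 34.4, 38.3 and 37.8 CPM. In Rv1-Luc in FBS it stood at 5.95, 7.17 and 8.83 CPM with vehicle and at 2.77, 2.19 and 2.76 CPM with SNX631, and in CSS at 11.3, 10 and 10.8 CPM against 4.12, 3.22 and 3.17 CPM. The libraries did not overlap in any of the 4 settings, and every treated library lay below every vehicle library. In such bulk libraries, fewer cells with the gene and less of its RNA per cell cannot be told apart. The fall was 2.34-fold in Rv1-WT in FBS (log2 fold change -1.22 ± 0.0783 SE, FDR 5.06e-19 in edgeR's test), 2.37-fold in CSS (-1.24 ± 0.07, FDR 9.2e-22), 2.83-fold in Rv1-Luc in FBS (-1.50 ± 0.126, FDR 9.86e-15) and 3.06-fold in Rv1-Luc in CSS (-1.61 ± 0.115, FDR 1.89e-17). The size of this effect was not shown to differ between media or between sublines, with an interaction of -0.02 (95% interval -0.231 to 0.193) for CSS against FBS in Rv1-WT, -0.11 (-0.472 to 0.246) in Rv1-Luc and -0.28 (-0.579 to 0.027) for Rv1-Luc against Rv1-WT in FBS.

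ALB, which encodes the liver protein albumin, was also lower with SNX631 in Rv1-WT and Rv1-Luc in both media. Its mean was 551 CPM in Rv1-WT in FBS with vehicle and 201 CPM with SNX631, 63.3 and 18.9 CPM in Rv1-Luc in FBS, and 0.352 to 3.38 CPM in the dKO derivatives. In CSS with vehicle it was 464 CPM in Rv1-WT and 69.7 CPM in Rv1-Luc, and with SNX631 168 to 178 CPM in the libraries of Rv1-WT and 17.2 to 26.1 CPM in those of Rv1-Luc. In Rv1-WT, ALB was thus lower in CSS than in FBS with vehicle, whereas UGT2B15 was higher. Of the 3 liver genes examined, ALB alone had over 3 counts in every library of Rv1-WT and Rv1-Luc, and APOA1 and APOB did not exceed 0.543 CPM in any library. At these low levels the mean of APOA1 was higher with SNX631 in Rv1-WT. It was 0.374 against 0.0606 CPM in FBS and 0.243 against 0.0173 CPM in CSS. In Rv1-Luc it was 0.115 against 0.116 CPM in FBS and 0.11 against 0.0534 CPM in CSS. The summed level of the 3, nearly all of it ALB, was 534 to 566 CPM with vehicle and 200 to 204 CPM with SNX631 in Rv1-WT in FBS, and 53.3 to 71.2 against 16.6 to 22 CPM in Rv1-Luc in FBS. The part of ALB in the UGT2B15 levels was not tested.

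UGT2B17, which acts on many of the same androgens, showed no fall. In Rv1-WT in FBS it was at 1.26, 1.34 and 1.29 CPM with vehicle and at 2.59, 3.17 and 2.16 CPM with SNX631, and in CSS at 3.56, 4.49 and 2.67 against 4.13, 4.59 and 6.03 CPM. In Rv1-Luc the level was lower still, at 0.202, 0.126 and 0.409 CPM with vehicle and 0.968, 0.475 and 0.656 CPM with SNX631 in FBS, and 0.317, 0.406 and 0.37 against 0.491, 0.58 and 1.35 CPM in CSS. The treated libraries lay above the vehicle libraries in 3 of the 4 settings and overlapped them in Rv1-WT in CSS. The log2 fold changes of 0.99 ± 0.298, 0.48 ± 0.231, 1.48 ± 0.45 and 1.14 ± 0.41 (in the order Rv1-WT in FBS and CSS, Rv1-Luc in FBS and CSS) all missed the call, at FDR 0.0183, 0.131, 0.0147 and 0.0368 in edgeR's test. The call turned on settings. The value for Rv1-WT in FBS passed at FDR 0.00906 without the filter on low counts and at 0.00362 in a fit of those 6 libraries alone. For Rv1-Luc in FBS it passed at 0.00694 without the filter, at 0.00684 (log2 fold change 2.01) without vehicle replicate 3 and at 0.00857 without SNX631 replicate 2.

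The share of UGT2B17 in the counts of the pair was higher with the inhibitor in each of the 4 settings, a description that was given no test. It was 2.55% ± 0.0448 (SD, n = 3) with vehicle and 11.1% ± 2.14 with SNX631 in Rv1-WT in FBS, and 3.95% ± 1.08 against 11.7% ± 1.76 in CSS. In Rv1-Luc it was 3.15% ± 1.35 against 21% ± 4.32 in FBS and 3.31% ± 0.58 against 18.6% ± 10.1 in CSS. No treated library fell within the range of the vehicle libraries of its setting. UGT2B15 remained the larger of the 2 in every library, and 1 treated Rv1-Luc library in CSS reached 29.9%. Summed over the 12 UGT2B genes and pseudogenes of the table, a sum that does not depend on how shared reads were split within the family, the level was 71.1 ± 1.02 CPM with vehicle and 38.7 ± 0.827 CPM with SNX631 in Rv1-WT in FBS, and 15.2 ± 1.75 against 7.12 ± 0.643 CPM in Rv1-Luc in FBS. The log2 ratio of this sum was -0.877 and -0.849 in Rv1-WT in FBS and CSS and -1.1 and -1.15 in Rv1-Luc in FBS and CSS, each nearer to 0 than the change of UGT2B15 alone. The sum was also given no test.

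**Figure D2:**
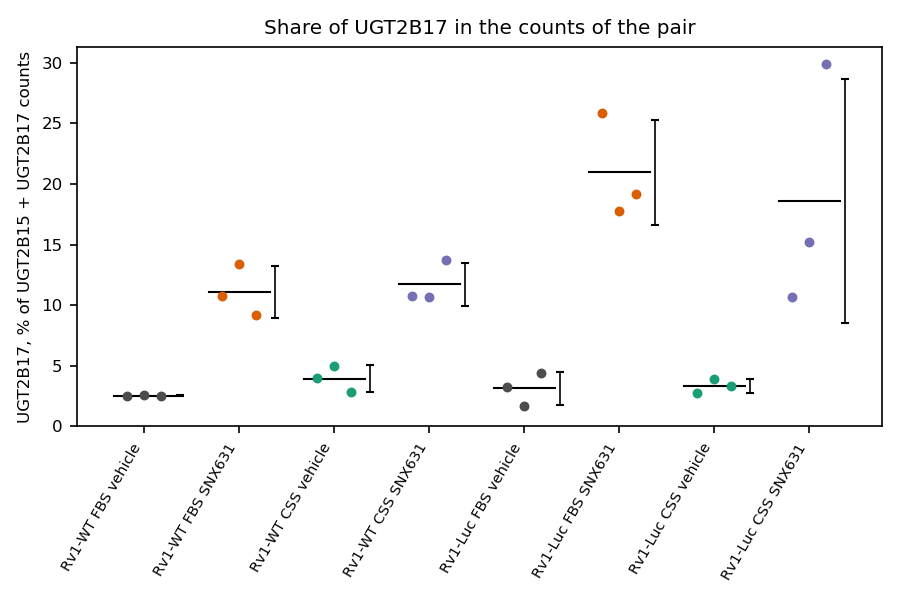
Share of UGT2B17 in the summed counts of UGT2B15 and UGT2B17 (y axis, percent, from 0) in the 8 groups of Rv1-WT and Rv1-Luc (x axis); points are libraries, lines means and error bars ± SD of 3 libraries. Vehicle groups averaged 2.55% to 3.95% and SNX631 groups 11.1% to 21%.

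UGT2B11 and UGT2B28, the other near-identical pair, fell with SNX631 in Rv1-Luc in FBS. UGT2B11 went from 3.44, 3.56 and 3.27 CPM to 2.16, 1.5 and 1.63 CPM (log2 fold change -0.97 ± 0.197 SE, FDR 0.000129 in edgeR's test). UGT2B28, an androgen-conjugating enzyme of low expression here, went from 24, 29 and 17 counts to 0, 5 and 9 counts, a ratio of 0.188 (95% counting interval 0.0976 to 0.336) and a log2 fold change of -2.38 ± 0.483 (FDR 0.000132). The groups did not overlap for either gene. In this setting edgeR called 3 members and DESeq2 called 2. JCHAIN, a gene of plasma cells, was also lower with SNX631 in this setting, at 1.82 to 3.55 CPM with vehicle and 0.317 to 1.4 CPM with SNX631. MS4A1, the other B cell gene examined, did not exceed 0.788 CPM in any library. It was at 0.41 to 0.726 CPM with vehicle and 0.263 to 0.4 CPM with SNX631 in this setting. In Rv1-Luc in CSS both means were higher with SNX631. JCHAIN was at 1.32 against 0.485 CPM and MS4A1 at 0.611 against 0.165 CPM. The part of these genes in the falls of UGT2B11 and UGT2B28 was not tested. In the other 3 settings of Rv1-WT and Rv1-Luc neither gene passed, with UGT2B11 at -0.34, 0.40 and 0.06 on the log2 scale (FDR 0.21, 0.0851 and 0.889) in Rv1-WT in FBS and CSS and Rv1-Luc in CSS. In FBS, the difference in effect between the sublines, Rv1-Luc minus Rv1-WT, was not called for either gene, at -0.63 (FDR 0.278) for UGT2B11 and -2.30 (FDR 0.0846) for UGT2B28.

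AKR1C3 was higher with SNX631 in Rv1-WT, by an amount below the fold limit. It stood at 29.7, 32.5 and 29.5 CPM with vehicle and 40.5, 45.4 and 45 CPM with SNX631 in FBS, and at 26.6, 30.2 and 31.9 against 40.1, 42.2 and 44.2 CPM in CSS. The libraries did not overlap in either medium, and the differences were 1.43-fold (log2 fold change 0.52 ± 0.0847 SE, FDR 7.23e-06) and 1.42-fold (0.51 ± 0.0835, FDR 3.21e-06), which pass the FDR limit of edgeR's test but not the limit of 1.5-fold. In Rv1-Luc, at 0.954 to 1.95 CPM over its 12 libraries, the differences of 0.29 ± 0.22 and 0.35 ± 0.212 missed the FDR limit (FDR 0.408 and 0.247).

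HSD17B6 fell with SNX631 in Rv1-Luc in CSS, from 7.74, 6.09 and 6.1 CPM to 4.27, 4.68 and 4.01 CPM (log2 fold change -0.63 ± 0.132 SE, FDR 0.000159). In Rv1-Luc in FBS the levels were 5.14, 6.66 and 7.13 CPM with vehicle and 3.34, 4.75 and 4.61 CPM with SNX631, a difference of -0.56 ± 0.13 (FDR 0.00082) that was just short of 1.5-fold. The groups did not overlap in either medium. Leaving out 1 library decided both calls. In CSS the call was lost without vehicle replicate 1 (-0.50, FDR 0.0104) or SNX631 replicate 3 (-0.58, FDR 0.00286, under 1.5-fold), and in FBS it was gained without vehicle replicate 1, which is the library that stood apart (-0.69, FDR 9.26e-05), SNX631 replicate 2 (-0.65, FDR 0.000794) or SNX631 replicate 3 (-0.62, FDR 0.00148). In Rv1-WT the differences were -0.01 ± 0.134 in FBS and -0.27 ± 0.152 in CSS, and neither passed (FDR 0.981 and 0.19).

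The reductases, HSD17B4 and STS differed little with SNX631. SRD5A1, which makes dihydrotestosterone, differed most in the derivatives with an active kinase, at 86.6, 85.3 and 85 CPM with vehicle and 66.5, 64.6 and 66.4 CPM with SNX631 in dKO-8, and 56, 56.5 and 56.6 against 45.6, 45.3 and 46.2 CPM in dKO-19. These differences, of 1.3-fold (log2 fold change -0.38 ± 0.046 SE, FDR 3.83e-09) and 1.23-fold (-0.30 ± 0.0494, FDR 2.52e-06), did not reach 1.5-fold although the libraries did not overlap. Set against the kinase-inactive derivatives, the effect differed by -0.22 ± 0.0662 for CDK8 and -0.23 ± 0.0679 for CDK19 on the log2 scale, at FDR 0.0316 and 0.0212, which miss the limit of 0.01. SRD5A3, a reductase that also serves dolichol synthesis, was 1.25-fold higher in Rv1-WT in CSS (0.32 ± 0.0662, FDR 0.000134). HSD17B4 differed by at most 1.14-fold and STS by at most 1.19-fold in the 8 settings.

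In all, 1 of the 10 members was called in each medium of Rv1-WT (FBS, then CSS), where 2.39% and 4.23% of all tested genes were called. In Rv1-Luc 3 were called in FBS, against 3.67% of genes, and 2 in CSS, against 4.06%. In dKO-8 1 was called, against 1.71% of genes. The single call there was UGT2B15, at 5, 4 and 4 counts with vehicle and 1, 0 and 0 with SNX631, a ratio of 0.071 (95% counting interval 0.00167 to 0.473) at FDR 0.00578. It rests on a few reads and was lost with DESeq2 (FDR 0.0228), without vehicle replicate 1 or 2 (FDR 0.026 and 0.0169) and without SNX631 replicate 2 or 3 (FDR 0.0414 and 0.0331). In dKO-19, dKO-8M and dKO-19M, 0 members were called by edgeR or DESeq2, where edgeR called 3.41%, 0.0150% and 0.0900% of genes, and 3, 2 and 0 members were at an unadjusted p under 0.05. All 8 calls among the 80 values were falls, while at FDR under 0.05 with no fold limit 25 values passed, 14 lower and 11 higher, the latter of UGT2B17, AKR1C3, HSD17B4 and SRD5A3. Counts at this looser limit and at an unadjusted p under 0.05 are given without the share of all genes, here and below. Over all genes, more were called higher than lower in Rv1-WT, at 350 against 129 with FBS and 595 against 251 with CSS, and in Rv1-Luc, at 465 against 269 with FBS and 490 against 323 with CSS, but not in dKO-8, at 131 against 211. The median log2 change of the 10 members lay between -0.281 (dKO-8) and 0.162 (Rv1-WT in CSS), beside -0.00172 to 0.00723 for all genes, and in the dKO derivatives it includes members at or near 0 counts.

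**Figure D3:**
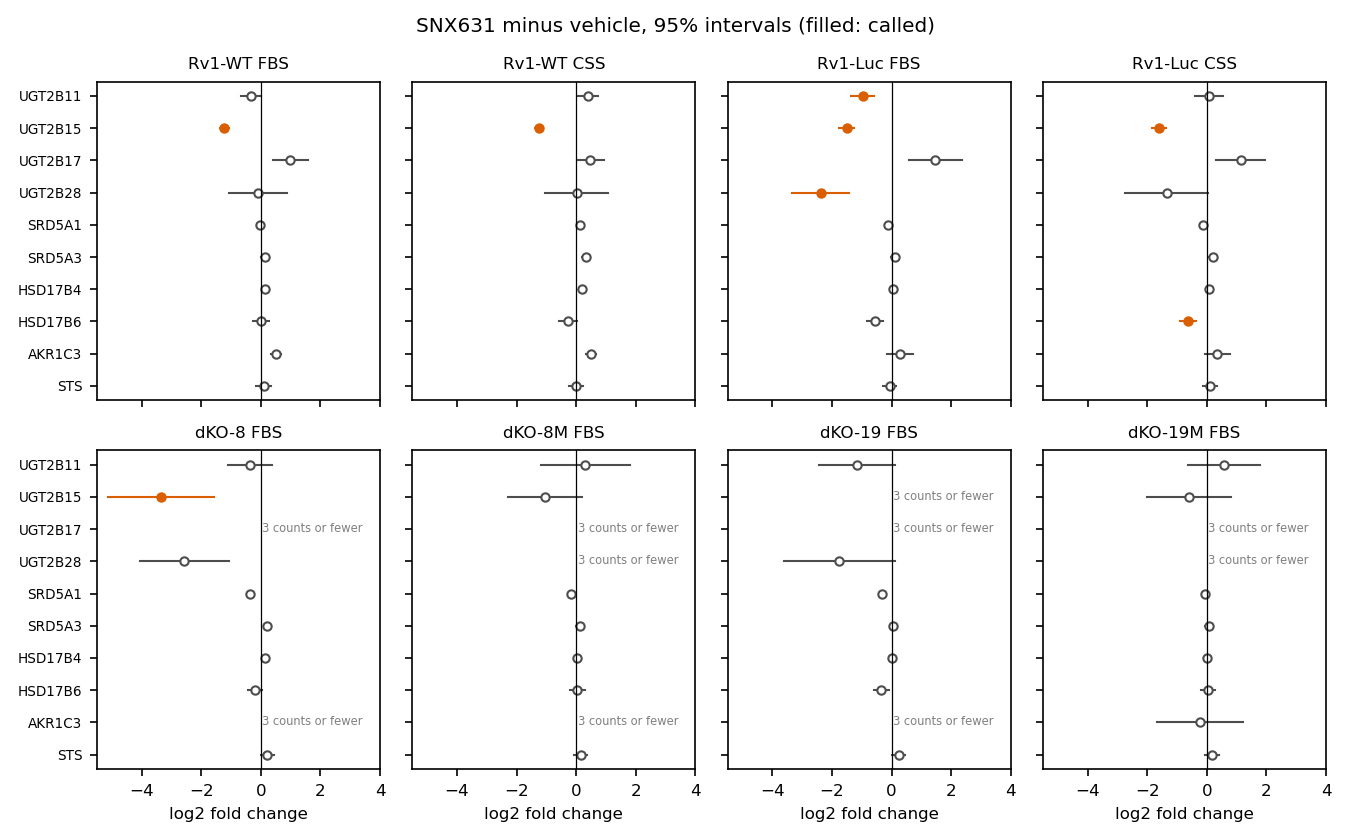
Log2 fold change of SNX631 against vehicle (x axes) for the 10 members (y axis) in the 8 settings, with 95% intervals from the edgeR fit; filled orange points were called at FDR under 0.01 and over 1.5-fold, and a label replaces the point where no library of either group had more than 3 counts. UGT2B15 lies left of 0 in Rv1-WT and Rv1-Luc, at -1.22 to -1.61, and UGT2B17 right of it, at 0.48 to 1.48, without a call.

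Growth in CSS moved UGT2B15 and UGT2B17 in the same direction in Rv1-WT. UGT2B15 rose 1.76-fold with vehicle (log2 fold change 0.82 ± 0.0689 SE, FDR 2.43e-15 in edgeR's test) and 1.74-fold with SNX631 (0.80 ± 0.0793, FDR 1.2e-12), from the libraries given above, which did not overlap. UGT2B17 rose 2.7-fold with vehicle (1.43 ± 0.283, FDR 4.72e-05) and 1.89-fold with SNX631 (0.92 ± 0.244, FDR 0.00211), the latter lost without the third FBS library (0.78, FDR 0.025) or the third CSS library (0.75, FDR 0.0308) with SNX631. With CSS and SNX631 together, UGT2B15 in Rv1-WT was at 36.8 ± 2.15 CPM, below its level in FBS with vehicle (49.5 ± 0.803 CPM), and UGT2B17 was at 4.92 ± 0.991 CPM, its highest mean. In Rv1-Luc, UGT2B15 was 1.47-fold higher in CSS with vehicle (0.56 ± 0.0982, FDR 2.52e-05), just under the fold limit, and passed it without FBS vehicle replicate 3 (0.71, FDR 1.48e-06) or CSS vehicle replicate 2 (0.60, FDR 5.06e-05). UGT2B17 in Rv1-Luc did not pass (FDR 0.536 and 0.749).

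UGT2B11 went the other way. It fell in CSS with vehicle from 5.94, 6.43 and 7.01 CPM to 3.84, 4.49 and 4.43 CPM in Rv1-WT (log2 fold change -0.60 ± 0.174, FDR 0.00339) and from 3.44, 3.56 and 3.27 CPM to 2.08, 0.992 and 1.29 CPM in Rv1-Luc (-1.19 ± 0.203, FDR 1.51e-05), without overlap. The call in Rv1-WT was at the fold limit and was lost without FBS vehicle replicate 3 (-0.54, FDR 0.0231), without CSS vehicle replicate 1 (-0.53, FDR 0.0252) and when libraries were scaled by their totals alone (-0.54, FDR 0.00855, under 1.5-fold). With SNX631 the differences of 0.13 and -0.16 did not pass in either subline (FDR 0.584 and 0.729). UGT2B28 fell in CSS with vehicle in Rv1-Luc, from 24, 29 and 17 counts to 10, 4 and 7 (ratio 0.293, counting interval 0.171 to 0.483, log2 fold change -1.75 ± 0.449, FDR 0.00414). That call did not hold without FBS vehicle replicate 1 or 2 (FDR 0.0131 and 0.0286) or without CSS vehicle replicate 1, 2 or 3 (FDR 0.0127, 0.0387 and 0.0161). JCHAIN and MS4A1 were lower in the same Rv1-Luc libraries, without overlap, at 1.82 to 3.55 CPM in FBS and 0.414 to 0.584 CPM in CSS for JCHAIN and 0.41 to 0.726 against 0.135 to 0.184 CPM for MS4A1, and their part in the falls of UGT2B11 and UGT2B28 was not tested.

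Among the synthesis enzymes, SRD5A3 fell in CSS in Rv1-WT with vehicle, from 37, 39.6 and 42.3 CPM to 23.4, 24.7 and 27.3 CPM (log2 fold change -0.66 ± 0.0655 SE, FDR 1.01e-12). HSD17B6 fell in Rv1-WT with SNX631, from 6.82, 6.2 and 8.25 CPM to 4.05, 4.16 and 4.08 CPM (-0.81 ± 0.144, FDR 5.42e-06), and with vehicle was 1.45-fold lower (-0.54 ± 0.14, FDR 0.0011), a call gained without FBS vehicle replicate 3 (-0.66, FDR 0.000218) or CSS vehicle replicate 3 (-0.66, FDR 0.000583). SRD5A1 was 1.42-fold lower in Rv1-WT with vehicle (-0.51 ± 0.0507, FDR 8.79e-13) and HSD17B4 1.25-fold lower (-0.33 ± 0.0369, FDR 5.03e-11), past the FDR limit of edgeR's test and short of the fold limit. STS was 1.32-fold lower in Rv1-Luc with vehicle (-0.40 ± 0.11, FDR 0.00852). AKR1C3 differed by no more than 1.2-fold in any of the 4 comparisons of media, at FDR 0.478 to 0.71.

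The response to CSS differed between the sublines past both limits for 1 of the 10 members, HSD17B6, where 8.65% of all genes were called. For HSD17B6, which was lower in CSS in Rv1-WT and at 0.09 ± 0.121 in Rv1-Luc with vehicle, the difference between the log2 effects was 0.63 ± 0.185 (FDR 0.00542 in edgeR's test), and it was the single call among the 70 interaction values. It was lost without the pair of libraries that stood apart (0.50, FDR 0.0273), without 1 of 6 libraries left out in turn, vehicle replicates 1 and 2 of Rv1-WT in FBS (0.64 and 0.50, FDR 0.0109 and 0.0424) and in CSS (0.54 and 0.62, FDR 0.0302 and 0.0119) and replicate 1 of Rv1-Luc in FBS and CSS (0.50 for each, FDR 0.0301 and 0.0427). SRD5A1, SRD5A3 and HSD17B4 differed in the same direction by 0.49 ± 0.069 (FDR 4.37e-08), 0.42 ± 0.0899 (FDR 0.000169) and 0.19 ± 0.0515 (FDR 0.00202), below the limit of 1.5-fold. UGT2B11, at -0.59 ± 0.27 (FDR 0.0842), was called without CSS vehicle replicate 1 of Rv1-Luc (-0.98, FDR 0.00767).

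In these media comparisons 4 members were called in Rv1-WT with vehicle, against 10.9% of all genes, and 3 with SNX631, against 7.83%. In Rv1-Luc 2 were called with vehicle, against 1.49%, and 0 with SNX631, against 1.51%, where 4 members were at an unadjusted p under 0.05 and DESeq2 also called 0. The median log2 change of the members was -0.417 and -0.316 in Rv1-WT with vehicle and SNX631, beside 0.00709 and 0.00774 for all genes, and -0.0737 and -0.0812 in Rv1-Luc. For the interactions, 0 members were called by edgeR or DESeq2 for the SNX631 effect in CSS against FBS (0.295% of genes in Rv1-WT and 0.0800% in Rv1-Luc), in Rv1-Luc against Rv1-WT (0.175%), in dKO-8 against dKO-8M (0.905%), in dKO-19 against dKO-19M (2.07%) and in dKO-19 against dKO-8 (0.885%), with 1 to 3 members at an unadjusted p under 0.05 in each, while 8.65% of genes were called for the CSS effect in Rv1-Luc against Rv1-WT. Comparisons that share the same vehicle or FBS libraries are not independent of each other.

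**Figure D4:**
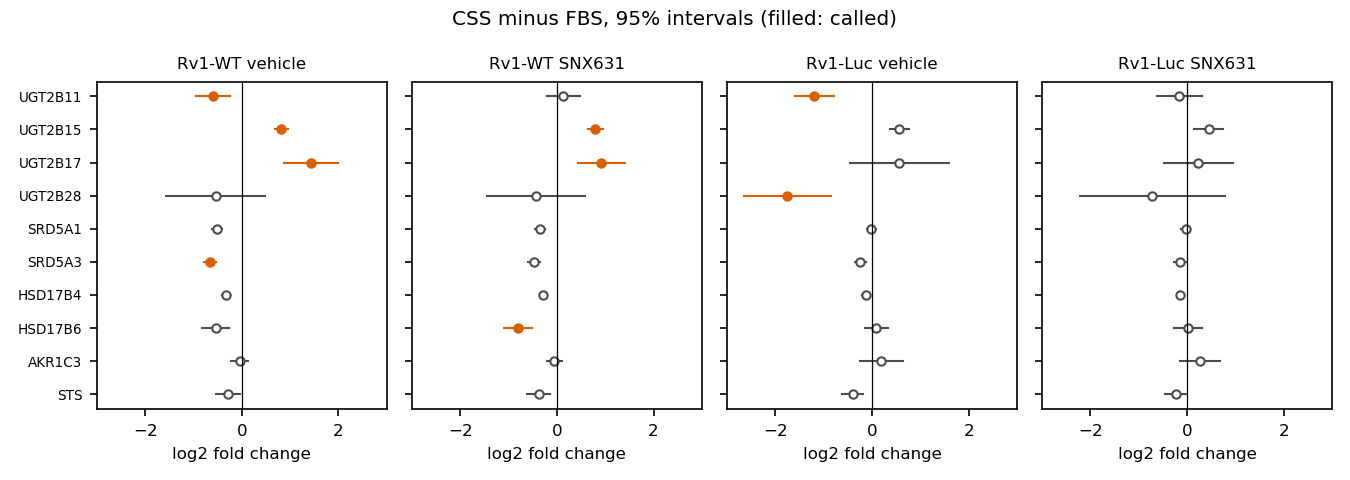
Log2 fold change of CSS against FBS (x axes) for the 10 members (y axis) in Rv1-WT and Rv1-Luc with vehicle or SNX631, with 95% intervals from the edgeR fit; filled orange points were called. In Rv1-WT, UGT2B15 and UGT2B17 lie right of 0, at 0.80 to 1.43, and SRD5A1, SRD5A3, HSD17B4 and HSD17B6 left of it, at -0.28 to -0.81.

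Between the sublines in FBS with vehicle, 4 members were lower in Rv1-Luc than in Rv1-WT, against 17.8% of all genes called. AKR1C3 differed most, from 29.7, 32.5 and 29.5 CPM in Rv1-WT to 1.17, 1.38 and 0.954 CPM in Rv1-Luc, 25.9-fold lower (log2 fold change -4.69 ± 0.135 SE, FDR 9.53e-34 in edgeR's test). UGT2B15 was 6.8-fold lower (-2.77 ± 0.0862, FDR 1.2e-34), UGT2B17 5.32-fold lower (-2.41 ± 0.427, FDR 7.41e-06) and UGT2B11 1.88-fold lower (-0.91 ± 0.173, FDR 1.07e-05). SRD5A3 was 1.25-fold lower (-0.32 ± 0.0617, FDR 1.15e-05) and HSD17B4 1.06-fold lower (-0.08 ± 0.0363, FDR 0.0462), neither past the fold limit. UGT2B28, at 1.56-fold, was not called (FDR 0.205), and SRD5A1, HSD17B6 and STS differed by at most 1.15-fold. The groups did not overlap for any of the 4 called genes, which describes the same libraries and adds no support to the calls. ALB was lower in the same comparison, as given above, and JCHAIN was higher, at 0 CPM in the 3 Rv1-WT libraries, and their part was not tested.

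Between the derivatives with an inactive and an active kinase, with vehicle, 2 members were called and lower in dKO-8M, the inactive form, against 7.03% of genes. Each derivative is a separately transduced line, so kinase state cannot be told apart from other differences between lines. The mRNA of the kinase put back also differed. CDK8 was at 60.6 to 71.4 CPM in dKO-8 and 118 to 134 CPM in dKO-8M. CDK19 was at 469 to 519 CPM in dKO-19 and 299 to 359 CPM in dKO-19M. UGT2B11 had 1, 3 and 3 counts in dKO-8M and 9, 14 and 15 in dKO-8 (ratio 0.165, counting interval 0.0623 to 0.375, FDR 9.32e-05), and UGT2B28 had 0, 2 and 0 against 5, 5 and 13.5 (ratio 0.0748, counting interval 0.00857 to 0.301, FDR 0.000917). The second call was lost without dKO-8 replicate 3 (FDR 0.0228) or dKO-8M replicate 1 (FDR 0.0181). SRD5A1 was 1.4-fold lower in dKO-8M (log2 fold change -0.48 ± 0.0462, FDR 5.17e-13) and, the other way, 1.2-fold higher in dKO-19M than in its active counterpart (0.26 ± 0.047, FDR 9.24e-06). Between dKO-19M and dKO-19, 0 members were called by edgeR or DESeq2 and 4 were at an unadjusted p under 0.05, while edgeR called 7.60% of genes. The lowest FDR among members there were those of SRD5A1 and SRD5A3 (0.000335), both under 1.5-fold, and UGT2B28 passed the limits of FDR 0.01 and 1.5-fold without dKO-19M replicate 2 (FDR 0.00987) and in no other alternative run.

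**Figure D5:**
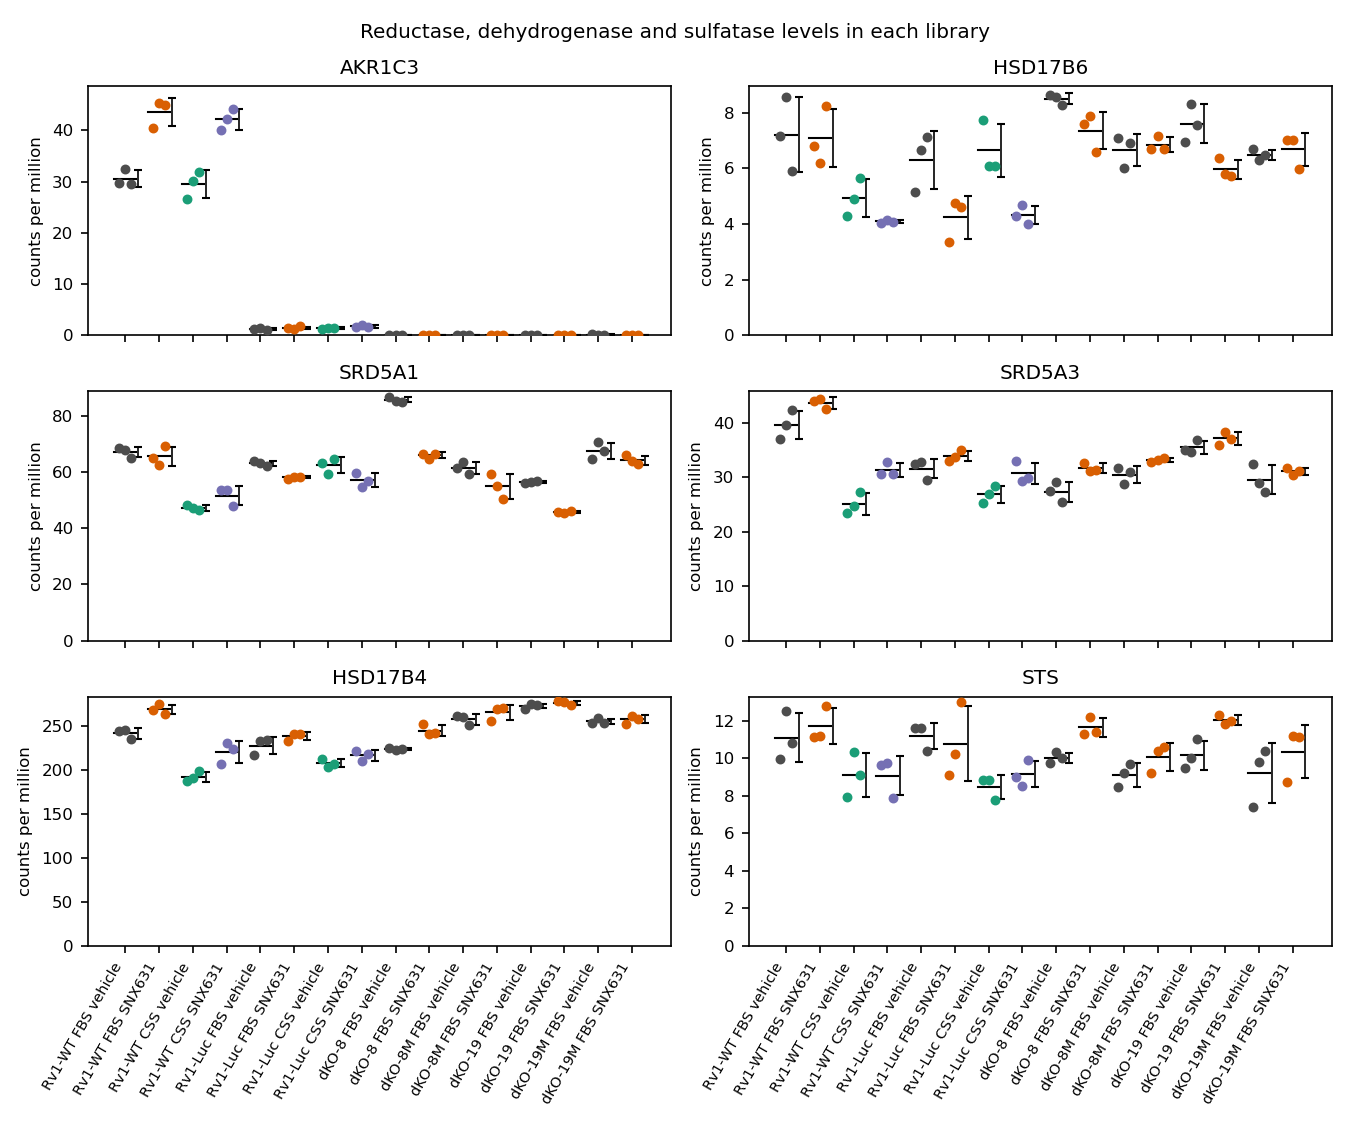
Levels of AKR1C3, HSD17B6, SRD5A1, SRD5A3, HSD17B4 and STS in CPM (y axes, linear, from 0) in all 16 groups (x axis); points are libraries, lines means and error bars ± SD of 3 libraries, with FBS vehicle in grey, FBS SNX631 in orange, CSS vehicle in green and CSS SNX631 in purple. AKR1C3 is at 29.6 to 43.7 CPM in Rv1-WT, 1.17 to 1.72 CPM in Rv1-Luc and at most 0.112 CPM in the dKO derivatives on average, whereas the others are present in every group.

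The 16 groups were ordered by their own means, and the share of all genes with separate neighbours is not given. For UGT2B15, 9 of the 15 neighbouring pairs did not overlap. Neighbouring groups of the dKO derivatives overlapped except at the lowest place, dKO-8 with SNX631, where the libraries held 1, 0 and 0 counts. The upper 8 places were Rv1-WT in CSS with vehicle (87.2 ± 3.24 CPM), Rv1-WT in FBS with vehicle, Rv1-WT in CSS and in FBS with SNX631, and then Rv1-Luc in the order CSS vehicle (10.7 ± 0.631), FBS vehicle (7.32 ± 1.45), CSS SNX631 (3.5 ± 0.534) and FBS SNX631 (2.58 ± 0.333). For UGT2B11, 5 of the 15 neighbouring pairs were separate, for UGT2B17, AKR1C3 and SRD5A1 3 each, for SRD5A3 and HSD17B4 2 each, for HSD17B6 1, and for UGT2B28 and STS none. The genes with the most similar pattern over the 16 group means, among those with at least 1 CPM on average, were NDN and ANK2 for UGT2B15 (Pearson's r 0.988 and 0.987), PDE4D and LAMB3 for UGT2B17 (0.995 and 0.993), SLC43A3 and TSPAN13 for UGT2B11 (0.98 and 0.977) and CFC1 and GRM8 for AKR1C3 (0.997 and 0.995). For the other members the closest were less alike, with TBC1D16 at 0.927 for SRD5A1, PSMD14 at 0.919 for SRD5A3, DLAT at 0.964 for HSD17B4, XXYLT1 at 0.915 for HSD17B6, MON1B at 0.888 for UGT2B28 and SNX14 at 0.844 for STS. These correlations are descriptions over group means that share lines, media and treatments, including the gap between the dKO derivatives and the other lines.

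Of 44 further genes for androgen synthesis, conjugation and transport, 27 passed the filter on low counts. STAR, CYP11A1, CYP17A1, HSD3B1 and HSD3B2, which serve the early steps of synthesis, and the reductase SRD5A2 were below it, while POR, CYB5A, FDX1 and FDXR, which pass electrons to the cytochromes P450 of these steps, passed it at means of 15 to 122 CPM. With SNX631, 3 rose and 1 fell in FBS in Rv1-WT, 4 and 1 in CSS, 1 and 1 in Rv1-Luc in FBS and 3 and 1 in CSS, where 2.39%, 4.23%, 3.67% and 4.06% of all genes were called in the same order. In the dKO derivatives 0 passed in edgeR's test, against 0.0150% to 3.41% of all genes. At an unadjusted p under 0.05 there were 4 to 8, a limit for which the share of all genes is not given. The median log2 change of the 27 lay between -0.0123 and 0.101 over the 8 settings, beside -0.00172 to 0.00723 for all genes. UGT2B10, which conjugates amines such as nicotine, fell in all 4 settings of Rv1-WT and Rv1-Luc, from 6.24 ± 0.625 to 1.58 ± 0.509 CPM in Rv1-WT in FBS (log2 fold change -1.96 ± 0.235, FDR 8.77e-09), and with log2 fold changes of -1.50, -2.60 and -2.89 in Rv1-WT in CSS and Rv1-Luc in FBS and CSS. AKR1C1 and AKR1C2, aldo-keto reductases that inactivate progesterone and dihydrotestosterone and are close relatives of AKR1C3, rose in Rv1-WT by 1.53 ± 0.187 and 1.31 ± 0.132 on the log2 scale in FBS (FDR 8.53e-09 and 1.41e-10 in edgeR's test). In CSS they rose by 1.66 and 1.51 in Rv1-WT and by 1.70 and 1.76 in Rv1-Luc. In Rv1-Luc in FBS neither gene was called.

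In CSS against FBS, 3 of the 27 rose and 2 fell in Rv1-WT with vehicle, against 10.9% of all genes called, and 4 rose and 3 fell with SNX631, against 7.83%. In Rv1-Luc 0 passed in edgeR's test, against 1.49% and 1.51%. At an unadjusted p under 0.05 there were 6 with vehicle and 8 with SNX631, again without the share of all genes. The median of the 27 was 0.0266 and -0.0118 in Rv1-WT, near that of all genes. UGT2B10 rose by 0.94 ± 0.176 with vehicle and 1.40 ± 0.244 with SNX631, HSD17B1, which reduces estrone, fell by 1.47 on the log2 scale with SNX631, and HSD17B7, which serves both estrone reduction and cholesterol synthesis, fell by 1.03 on the log2 scale with vehicle. In Rv1-Luc against Rv1-WT, 2 of the 27 were higher and 8 lower, against 17.8% of all genes called, with AKR1C2 at -4.30 ± 0.239, AKR1C1 at -3.54 ± 0.324 and UGT2B10 at -2.16 ± 0.224 on the log2 scale. Between the lines with an inactive and an active kinase, 1 of the 27 was higher for CDK8 (RDH16) and 1 for CDK19 (SLCO1A2), against 7.03% and 7.60% of all genes. Both were named after their values were seen. Named likewise, PAPSS2, which makes the donor for steroid sulfation, rose with SNX631 in all 4 settings of Rv1-WT and Rv1-Luc, by 0.87 to 1.21 on the log2 scale. Of the 50-base words of AKR1C3, 3.61% also occur in AKR1C2, so a small share of the reads of these genes cannot be told apart.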

How the data were processed

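RNA of 48 libraries was sequenced. The authors deposited a table of estimated counts per gene, which per the labels they made with cutadapt 2.8, STAR 2.7.2b and featureCounts of Subread 2.0.3 on human (GRCh38.p13) and mouse (GRCm39) builds. The deposited counts are not all whole numbers. The annotation release and the setting used for shared reads are not given in the sources used here. Groups were taken from the labels, in which every sample's title names line, serum, treatment and replicate.

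Counts were rounded to whole numbers, filtered with filterByExpr of edgeR 4.0.16 (minimum count 10, minimum total 15), which kept 20009 of 61815 genes and all 10 members, and scaled by TMM (factors 0.911 to 1.07). Group means of all 48 libraries were fitted with the quasi-likelihood test (robust, 32 residual degrees of freedom) in R 4.3.3, giving 22 comparisons, each with Benjamini-Hochberg adjustment (FDR) over all genes tested. The p-values rest on the spread between samples of the same group, which may be partly technical. It was estimated per gene over all 16 groups together, not from the groups compared alone. On simulated data for SNX631 in Rv1-WT in FBS (18837 genes), 143 of 200 genes changed 2-fold were recovered (71.5%), with 0 false calls. The simulation gave all genes the same dispersion and held no differences between lines or media and no libraries that stood apart. Its rates therefore need not hold for the measured data. Counting intervals (95%) and floors of 3 counts cover counting error only. Where groups are said not to overlap, the share of all genes without overlap is not given. Such a gap adds no support to a call made on the same libraries.

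The named genes are all 10 members, up to 3 called pathway genes per kind of comparison by size of change, and up to 2 genes of the most similar pattern per member. The members, the pathway list and the markers were chosen with earlier results of these data known. Coding sequences and shared words of 50 bases came from GENCODE release 29, and start sites from RefSeq through Biopython 1.88 and Python 3.11.15. RefSeq windows were found for 7 of the 10 members. Some marker genes and a further motif are not reported here. Replicate numbers were tested as a block, and DESeq2 1.42.0, other scalings, filters, limits, rounding, subsets of libraries and leaving out each library were tried as alternatives.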

Additional observations from a re-analysis of the deposited data

Results flagged for a closer look

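HSD17B6, the oxidase that returns 3-alpha-androstanediol to dihydrotestosterone, stood out because its response to charcoal-stripped serum differed between the sublines by a test of the difference itself. With vehicle, the log2 change from FBS to CSS was -0.54 ± 0.14 SE in Rv1-WT and 0.09 ± 0.121 in Rv1-Luc, and the difference was 0.63 ± 0.185 (95% interval 0.26 to 1, FDR 0.00542 in edgeR's quasi-likelihood test). In FBS the libraries held 7.17, 8.57 and 5.9 CPM in Rv1-WT and 5.14, 6.66 and 7.13 CPM in Rv1-Luc, and in CSS 4.28, 4.9 and 5.65 against 7.74, 6.09 and 6.1 CPM. The sublines overlapped in FBS and did not in CSS. Of the 12 libraries of this comparison, 6 removed the call when left out 1 at a time (FDR 0.0109 to 0.0427). With SNX631 in place of vehicle, the change from FBS to CSS was -0.81 ± 0.144 in Rv1-WT and 0.02 ± 0.141 in Rv1-Luc, a difference that was not tested.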

How the results depend on the processing

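Of 1223 values of 70 member results recomputed under alternatives, 1120 kept their direction and side of the limits, 42 lost and 61 gained a call, and 0 reversed. Each of the 70 was called with the main settings or under at least 1 alternative, so results never called are not counted here. With each library of the groups compared left out in turn (6 for most comparisons, 12 for an interaction), 17 of 24 calls held throughout. The 8 calls for SNX631 became 5 when tested against 1.5-fold and 25 at FDR under 0.05 with no fold limit (7 to 10 with a library left out). The 9 for CSS became 1 and 22 (8 to 10), and the 6 between lines became 4 and 16 (5 to 7), the stricter test removing UGT2B28 in dKO-8M against dKO-8 (FDR 0.0121) and UGT2B11 in Rv1-Luc against Rv1-WT (FDR 0.0686). The single interaction call became 0 with library size only, against 1.5-fold, with the 2 libraries that stood apart left out (an alternative chosen after seeing the data), or with only the libraries compared, and 6 at the looser limit (0 to 1 with a library left out). The cause was not tested, except that the stricter and looser limits act by construction. Unfiltered counts gave 11 calls for SNX631 and DESeq2 gave 6, where DESeq2 returned no adjusted p for some values of UGT2B28. Adding replicate numbers as a block gave 8, 9, 6 and 1 calls. Replicates of the same number did not clearly deviate together (correlations -0.091 to 0.157, 2 of 45 pairs over 0.1). No pairing by number was thus detected, which does not exclude one. Depth limits UGT2B17, UGT2B28 and, in the dKO derivatives, every UGT2B member and AKR1C3.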
